A study of Mus musculus with 13 samples.

Results

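The potassium channel family was followed in sciatic nerve of diabetic and control mice. Its members were all measured genes whose symbol begins with Kcn and a further letter, which gave 70 of 15437 genes, each with 1 probe set. Membership was set by name and not by level, with earlier results of these data known. The nerves came from BKS strain mice aged 24 weeks. Both copies of the leptin receptor gene carry the db mutation in db/db mice and these animals become obese and diabetic, whereas db/+ mice carry a single copy and are the nondiabetic control, and no treatment is named for either group. There were 7 db/+ arrays (samples 101, 103, 104, 105, 106, 404 and 407) and 6 db/db arrays (samples 110, 111, 112, 409, 410 and 411). The labels do not say that each sample came from a separate animal, so p-values measure the spread between these samples. The comparison asks how gene expression in diabetic nerve departs from that of control nerve.

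Potassium channels let potassium leave or enter the cell and so set the resting potential and end the action potential. In myelinated nerve, voltage-gated channels lie under the myelin beside the node of Ranvier, leak channels of the tandem-pore class act at the node itself, and inward rectifiers of glia take up the potassium that firing axons release. Smooth muscle of vessels, immune cells, fat cells and muscle fibres carry their own sets. Most pore-forming members work with auxiliary subunits that change their gating or their delivery to the membrane. In bulk tissue, fewer cells of a type and less RNA per cell cannot be told apart.

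Values are log2 expression levels, so a difference of 1 is a doubling. Array medians lay between 8.63 and 8.71. The myelin genes Pmp22 and Mbp were between 13.45 and 13.98 and between 12.90 and 13.46 on the 13 arrays. Of 6 measured myelin markers, 3 were called lower in db/db. Myelin gene levels cannot show whether a sample also held neuronal cell bodies, so they do not settle the nerve label. The db/+ arrays were not alike. The mean of 13 neuronal genes, of which 11 fell and 0 rose in db/db, ran from 11.23 to 11.88 in db/+ 101, 103, 104 and 106, from 7.66 to 8.87 in db/+ 105, 404 and 407, and from 6.94 to 7.62 in db/db nerve. The log2 difference between the 3′ and the 5′ actin probe sets, a sign of RNA quality, lay between 0.96 and 1.39, between 0.40 and 1.14 and between 0.48 and 0.92 in the same order. These neuronal levels were the reason to keep 101, 103, 104 and 106 apart as the first db/+ set, with 105, 404 and 407 as the second. Levels in the first and the second set are described with no test between them. The differences of called genes are given with and without the first set. Samples 101 to 112 and 404 to 411 are 2 number series whose meaning the labels do not give. The first set lies wholly in samples 101 to 112, where 105 is the only other db/+ array. The number series and the first set are therefore not independent. The fit in samples 404 to 411 alone holds 5 samples, with 404 and 407 as its db/+ arrays. All of them are also in the fit without the first set, so it is not a separate check. A fit with the series as a block is named where it changes the call of a gene described below. Values listed for single arrays follow the order of the sample numbers. A difference was called when limma's Benjamini-Hochberg adjusted p, over all 15437 genes, was below 0.05. All adjusted p-values below come from limma with that adjustment.

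Over the 13 arrays, 4 of the 70 genes rose in db/db nerve and 17 fell. The share that rose was 5.71%, beside 13.4% of all genes, and the share that fell was 24.3%, beside 11.7% of all genes. The median log2 change was −0.46 for the family and 0.02 for all genes. Without db/+ 101, 103, 104 and 106 the picture was different. Then 4 of 70 rose, where 6.12% of all genes did, and 3 of 70 fell, where 6.78% did, and the family median was −0.07 beside −0.05. By sample left out singly, the count of falls ran from 8 to 25, and it was 10, 9, 8, 9, 11 and 9 without 103, 106, 110, 409, 410 and 411. In samples 404 to 411 alone 3 of 70 rose (background 4.93%) and 4 fell (background 4.17%). Of the 17 falls over all arrays 2 were still called without those db/+ samples, and of the 4 rises 3 were.

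**Figure D1:**
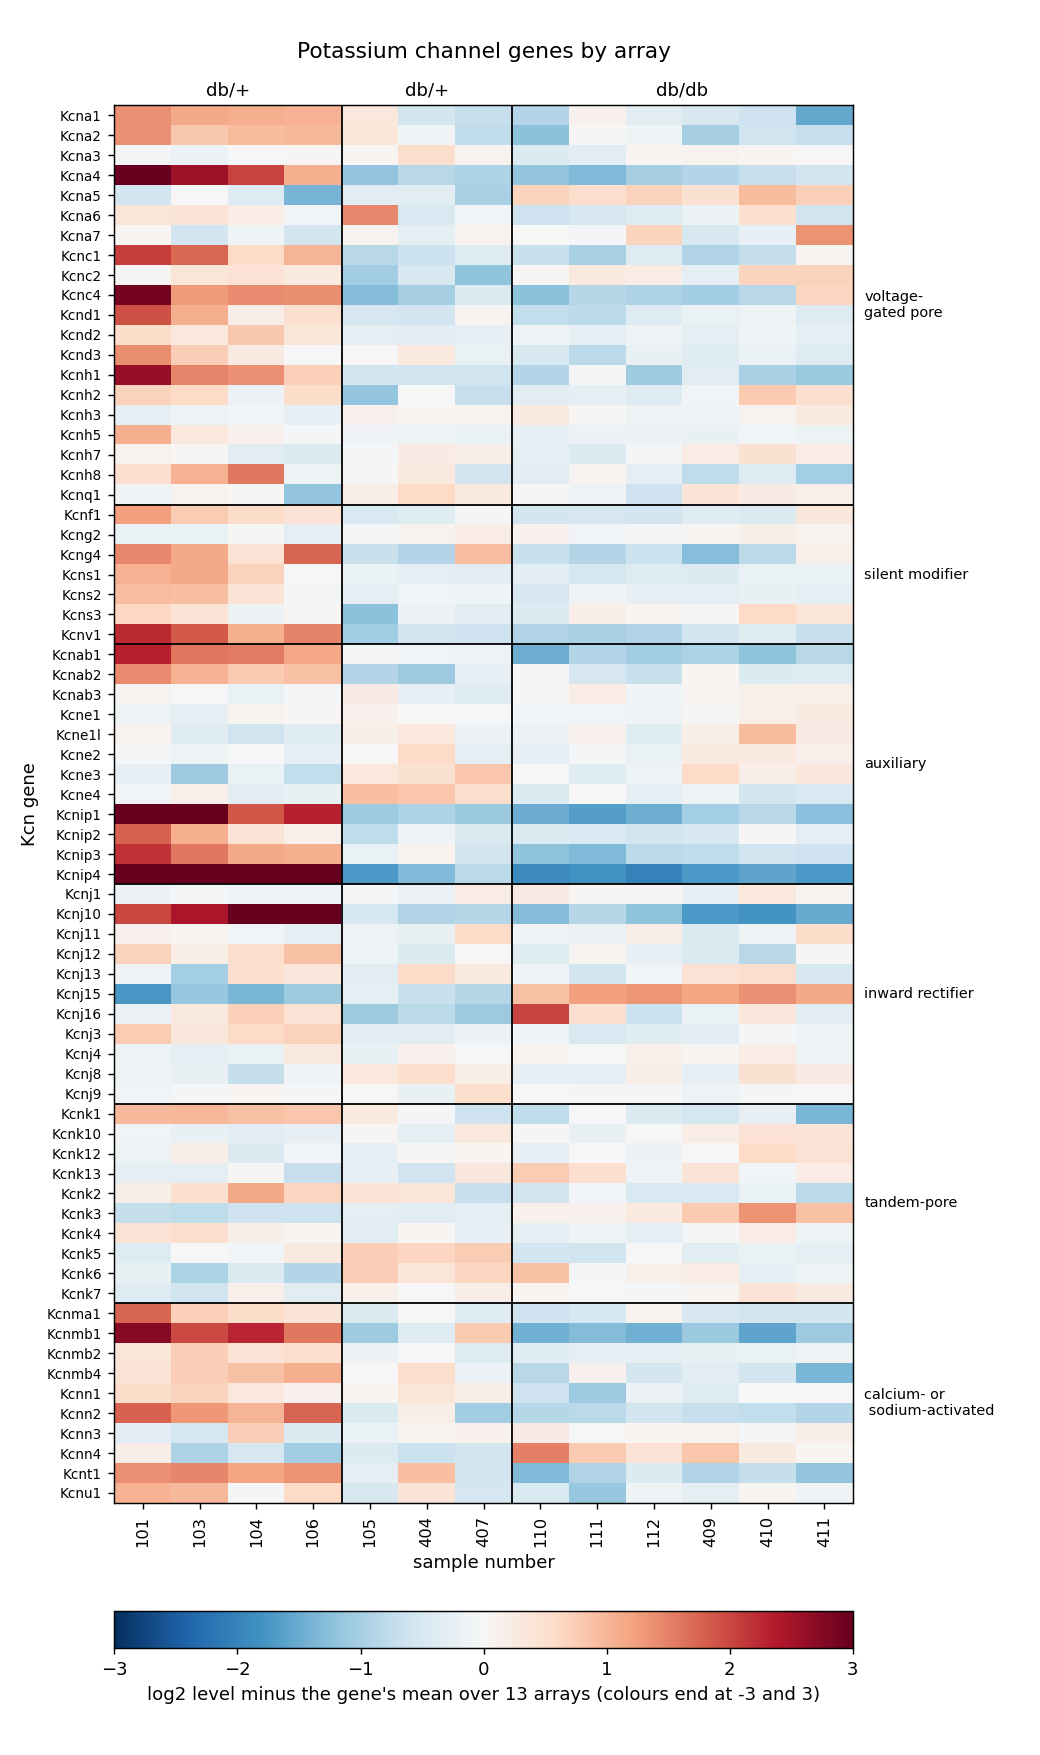
Level of each of the 70 potassium channel genes on each of the 13 arrays, as the log2 level minus that gene's mean over the arrays, with genes in rows by class and arrays in columns by sample number. Many voltage-gated, auxiliary and calcium-activated members are high (red) in db/+ 101, 103, 104 and 106, while Kcnj15, Kcna5 and Kcnk3 are high in all 6 db/db arrays.

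In 28 of the 70 genes (40%) each of db/+ 101, 103, 104 and 106 was higher than each of the other 9 arrays, and 8.45% of all genes had that order. The opposite order was found for Kcnj15 and Kcnk3 (2 of 70, against 8.13% of all genes). By class they were 9 of 20 voltage-gated pore subunits, 4 of 7 silent modifier subunits, 6 of 12 auxiliary subunits and 5 of 10 calcium- or sodium-activated channel genes, 3 of 11 inward rectifiers and 1 of 10 tandem-pore channels. Samples 101, 103, 104 and 106 were set apart on the mean of the neuronal genes, which therefore has the same order by construction. The part of neuronal genes in the result was not tested.

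The genes that rose were Kcnj15, Kcna5, Kcnk3 and Kcnn4. Kcnj15 (Entrez gene 16516), an inward rectifier subunit known from epithelia, had the greatest rise. Its level was 6.47, 7.08, 6.84 and 7.15 in the first set, and 7.94, 7.54 and 7.35 in the second. In db/db it was 9.10 at the lowest, 9.42 at the median and 9.59 at the highest. The genotypes did not overlap, and the 6 db/db values lay within a narrower range than the db/+ values. The mean was 9.40 ± 0.17 (SD, n = 6) in db/db and 7.19 ± 0.48 (SD, n = 7) in db/+, a rise of 2.21 ± 0.20 (SE) on the log2 scale (limma adjusted p = 1.31e-05). The rise was 1.79 without the first set (limma adjusted p = 0.00026). It was 2.26 in samples 101 to 112 and 2.00 in samples 404 to 411.

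Kcna5 (Entrez gene 16493), a voltage-gated channel of vascular smooth muscle, heart and macrophages, rose by 1.24 ± 0.19 (SE) (limma adjusted p = 0.000752). Its level was 6.30, 6.89, 6.48 and 5.47 in the first set, 6.53, 6.53 and 5.91 in the second, and ran between 7.32 and 7.82 in db/db with a median of 7.56. Here too the genotypes did not overlap, and the first and second sets did. The rise was 1.22 without the first set (limma adjusted p = 0.00231) and 1.36 in samples 404 to 411.

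Kcnk3 (Entrez gene 16527), an acid-sensitive leak channel that is also prominent in brown fat, rose by 1.10 ± 0.20 (SE) (limma adjusted p = 0.00169). Its level was between 6.67 and 6.83 in the first set, between 7.13 and 7.18 in the second, and 7.56, 7.58, 7.73, 8.23, 8.78 and 8.33 in db/db 110, 111, 112, 409, 410 and 411. The 3 sets were ordered without overlap, and db/db 409, 410 and 411 were the highest arrays. Without the first set the change was 0.88 and did not pass (limma adjusted p = 0.0587), and in samples 404 to 411 Kcnk3 rose by 1.30 (limma adjusted p = 0.0249). When the number series was blocked on, without the first set, it rose by 0.97 (limma adjusted p = 0.0118).

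Kcnn4 (Entrez gene 16534), the intermediate-conductance calcium-activated channel of red cells, lymphocytes and macrophages, rose by 1.20 ± 0.24 (SE) (limma adjusted p = 0.00362). It was 9.76, 8.62, 9.05 and 8.52 in the first set, between 8.91 and 9.15 in the second, and ran between 9.61 and 11.06 in db/db. Only db/+ 101 reached into the db/db range. The rise was 1.18 without the first set (limma adjusted p = 0.0243), and the difference was 0.98 in samples 404 to 411 (limma adjusted p = 0.0724).

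Kcnj15, Kcna5 and Kcnk3 were 3 of the 70 genes that were higher in all db/db samples than in any db/+ sample, an order that 6.17% of all genes had. Markers of other cell types were also examined on these arrays. The mean of 7 measured adipocyte markers ranged from 13.15 to 13.29 in db/db nerve, above the db/+ range of 12.09 to 13.02, with 4 called higher. The mean of 8 macrophage markers was from 12.37 to 12.78 in db/db nerve, between 11.97 and 12.27 in the first set and between 12.24 and 12.94 in the second, with 2 called higher, and that of 7 measured lymphocyte markers overlapped between all sets. The part of these cells in the 4 rises was not tested.

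**Figure D2:**
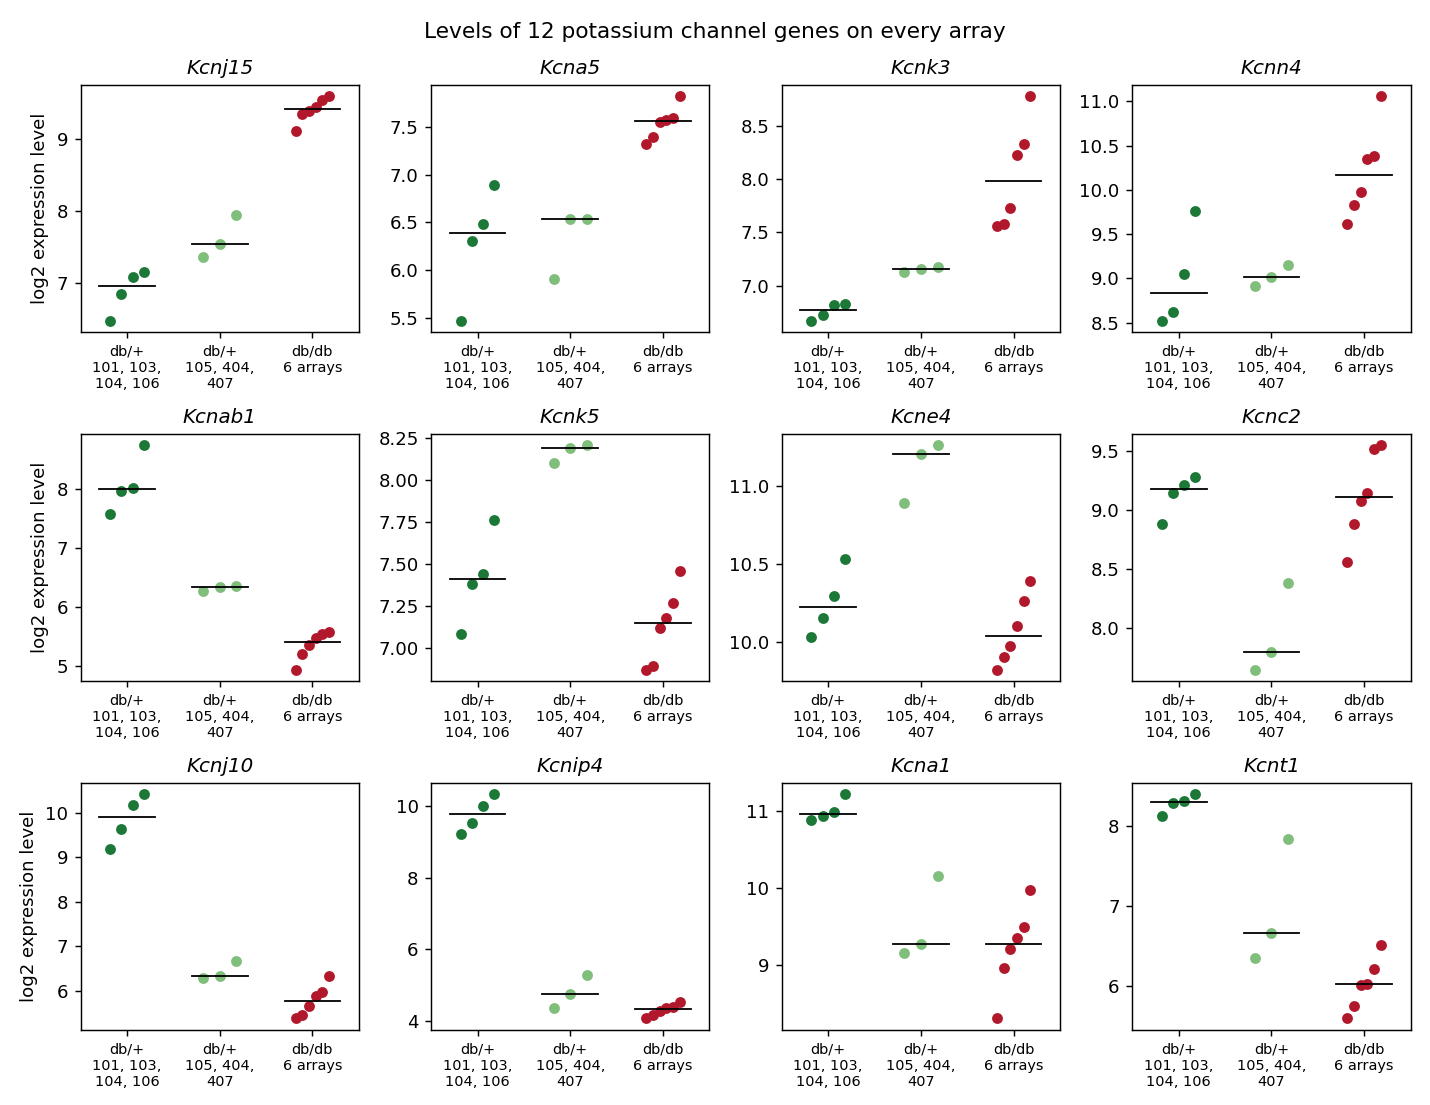
Log2 expression level of 12 potassium channel genes in db/+ 101, 103, 104 and 106 (dark green), db/+ 105, 404 and 407 (light green) and 6 db/db arrays (red), 1 point per array with a line at the median. The vertical scale differs between panels and does not start at 0. Kcnj15, Kcna5 and Kcnk3 are higher in all db/db arrays, Kcnab1 is lower in all db/db arrays, and Kcnj10 and Kcnip4 are high in the 4 db/+ arrays alone.

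Promoter sequence is shown for chosen members that rose or fell and have a single start in the RefSeq promoter table of build GRCm38.p6. They were picked by hand because they differ in how many CG pairs they hold. Kcnd3, Kcng4, Kcnk1, Kcnk5 and Kcnmb4 also fell and have a single start, and are not shown. The 250 bases before the start are given, 5′ to 3′ along the gene, with every CG in capitals. The first 3 genes rose and the last 3 fell.
Kcnj15: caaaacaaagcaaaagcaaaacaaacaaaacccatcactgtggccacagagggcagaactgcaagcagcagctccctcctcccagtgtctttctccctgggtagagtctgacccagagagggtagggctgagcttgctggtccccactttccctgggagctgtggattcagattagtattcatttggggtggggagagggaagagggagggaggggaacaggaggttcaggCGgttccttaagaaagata
Kcna5: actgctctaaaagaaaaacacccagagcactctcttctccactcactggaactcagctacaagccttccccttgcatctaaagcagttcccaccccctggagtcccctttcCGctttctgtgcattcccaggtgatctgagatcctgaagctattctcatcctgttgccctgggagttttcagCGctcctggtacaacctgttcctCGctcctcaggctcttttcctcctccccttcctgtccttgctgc
Kcnn4: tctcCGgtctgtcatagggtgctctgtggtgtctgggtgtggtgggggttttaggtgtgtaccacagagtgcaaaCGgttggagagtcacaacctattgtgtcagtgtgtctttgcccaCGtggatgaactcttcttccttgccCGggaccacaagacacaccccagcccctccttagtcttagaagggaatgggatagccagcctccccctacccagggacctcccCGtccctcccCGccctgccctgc
Kcnj10: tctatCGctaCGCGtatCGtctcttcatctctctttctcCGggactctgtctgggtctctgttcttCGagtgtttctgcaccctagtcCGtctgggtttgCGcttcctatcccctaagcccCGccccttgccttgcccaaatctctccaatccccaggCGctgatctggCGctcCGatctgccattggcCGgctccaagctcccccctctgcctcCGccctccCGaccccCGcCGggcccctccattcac
Kcna2: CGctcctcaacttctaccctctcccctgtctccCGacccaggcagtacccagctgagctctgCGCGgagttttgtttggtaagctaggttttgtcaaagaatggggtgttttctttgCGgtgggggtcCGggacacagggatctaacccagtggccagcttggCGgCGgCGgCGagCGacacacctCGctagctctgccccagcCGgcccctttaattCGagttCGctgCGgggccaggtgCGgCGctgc
Kcnmb1: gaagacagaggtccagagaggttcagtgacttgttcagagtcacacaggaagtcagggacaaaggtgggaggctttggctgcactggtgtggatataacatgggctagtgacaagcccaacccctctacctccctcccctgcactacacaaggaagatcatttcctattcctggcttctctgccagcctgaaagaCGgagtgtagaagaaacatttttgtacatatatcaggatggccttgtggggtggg

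These windows lie at chr16:95257308-95257557 (plus strand) for Kcnj15, chr6:126535556-126535805 (minus strand) for Kcna5 and chr7:24370013-24370262 (plus strand) for Kcnn4. The others lie at chr1:172340960-172341209 for Kcnj10, chr3:107101317-107101566 for Kcna2 and chr11:33962763-33963012 for Kcnmb1, all on the plus strand. Of the 70 members 55 were in the table and 42 had a single start. The CG count, the same on both strands, was 1, 3 and 6 for Kcnj15, Kcna5 and Kcnn4, and 17, 18 and 1 for Kcnj10, Kcna2 and Kcnmb1. The 8 fallen genes with a single start had a median of 17.5, although Kcnk1, Kcnmb1 and Kcng4 had 0, 1 and 4. The median was 10 for the 31 members not called and 5 for all 22862 promoters with a single start, of which 39.4% held at most 3 and 23.2% at least 17. These counts describe the windows and were not tested.

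Among voltage-gated pore subunits, 20 in number, Kcna5 rose, 3 fell and 16 did not pass, beside 13.4% higher and 11.7% lower among all genes, and the median was −0.46. Leaving out the first set gave 2 rises, 0 falls by limma (1 at an unadjusted p below 0.05) and a median of −0.06. Here and for the classes below, the share of all genes at an unadjusted p below 0.05 in this fit was not counted. Kcna1 and Kcna2, the channels that lie under the myelin beside the node, fell together. Kcna1 was 11.22, 10.98, 10.93 and 10.88 in the first set, but 10.16, 9.28 and 9.16 in the second, and ran between 8.31 and 9.98 in db/db. The last 2 sets overlapped. It fell by 1.15 ± 0.38 (SE) over all arrays (limma adjusted p = 0.0405), and without the first set it stood at −0.31, with a 95% interval from −1.09 to 0.47 (limma adjusted p = 0.609).

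Kcna2 was 6.65, 6.10, 6.25 and 6.27 in the first set, 5.66, 5.18 and 4.52 in the second, and ran between 4.06 and 5.32 in db/db. It fell by 1.12 ± 0.33 (SE) over all arrays (limma adjusted p = 0.026), and stood at −0.43 without the first set (limma adjusted p = 0.42). Kcna1 lost its call without 101, 103, 104, 106, 110, 112, 409, 410 or 411, each left out singly (highest limma adjusted p = 0.09), and Kcna2 without 103, 104, 106, 110, 409 or 411 (highest 0.0592). Kcna5, Kcna1 and Kcna6 are consecutive genes in RefSeq, as are Kcna3 and Kcna2, and of the neighbours Kcna5 and Kcna1 the former rose and the latter fell. Kcna3, a channel of T cells, stood at −0.15 (limma adjusted p = 0.396).

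The A-type channel gene Kcnd3 fell by 0.76 ± 0.22 (SE) (limma adjusted p = 0.0267) and was lower in all db/db samples than in any db/+ sample. Its level was from 4.95 to 5.54 in db/db nerve, between 5.55 and 6.03 in the second and between 5.73 and 7.13 in the first set. The gap between the genotypes was therefore small. Without the first set the change was −0.43 (limma adjusted p = 0.102), and the call was lost without 103, 110 or 111 (highest 0.0568).

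Several voltage-gated genes were high in the first set and lower elsewhere. Kcna4, a rapidly inactivating channel of small sensory neurons, was 8.53, 8.08, 7.58 and 6.60 there and between 4.22 and 4.96 on the other 9. The high-threshold channel gene Kcnc1 was between 5.98 and 7.44 there, Kcnc4, of the same subfamily, between 8.51 and 10.09, and Kcnh1, an ether-a-go-go channel, between 6.63 and 8.56. Elsewhere they reached 5.45, 7.87 and 5.87. Over all arrays these 4 genes stood at −1.76, −1.10, −1.31 and −1.37 and did not pass (limma adjusted p = 0.0733, 0.0963, 0.138 and 0.0631). Leaving out the first set turned Kcna4, Kcnc1 and Kcnc4 to 0.04, 0.03 and 0.20 and took Kcnh1 to −0.14, and none passed.

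Kcnc2, from the same subfamily, differed. It was between 8.88 and 9.28 in the first set, but 7.80, 8.38 and 7.65 in the second, and ran between 8.56 and 9.55 in db/db. The first set lay inside the db/db range and the second below it. The change was 0.50 over all arrays (limma adjusted p = 0.226), and it rose by 1.18 without the first set (limma adjusted p = 0.0138). Kcnd2 stood at −0.37, Kcnh2, the cardiac repolarising channel, at 0.05, Kcnh8 at −0.84, and Kcnq1, a channel of heart and epithelia, at 0.02, and none of these 4 passed. They stood at 0.07, 0.65, −0.37 and −0.36 without the first set and did not pass, and when the number series was blocked on besides, Kcnh2 rose by 0.77 (limma adjusted p = 0.0357). Over all arrays the 95% interval of Kcnh2 ran from −0.63 to 0.74 and that of Kcnq1 from −0.52 to 0.56.

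Silent modifier subunits form no channel alone and alter the channels they join. Of 7, Kcng4 fell and 6 did not pass, beside 11.7% lower among all genes, and the median was −0.64. There were 0 calls by limma without the first set (1 higher and 0 lower at an unadjusted p below 0.05), with a median of −0.06. Kcng4 was between 5.10 and 6.42 in the first set, 3.79 to 5.59 in the second with sample 407 the highest, and ran between 3.39 and 4.81 in db/db. Sample 407 stood with the first set. It fell by 1.28 ± 0.42 (SE) (limma adjusted p = 0.0404), and lost its call when any single array other than 105, 404 and 411 was left out (highest limma adjusted p = 0.0855) and when the number series was a block (limma adjusted p = 0.0584). Kcnv1 was between 5.60 and 6.75 in the first set and between 3.47 and 4.16 on the other 9, and stood at −1.36 over all arrays (limma adjusted p = 0.0677) and 0.01 without the first set. Kcnf1 and Kcns2 stood at −0.65 and −0.53, and at −0.06 and −0.12 without the first set, and did not pass. Kcns3 stood at 0.26 over all arrays and at 0.72 without the first set, and passed in neither (limma adjusted p = 0.478 and 0.113). When the number series was blocked on besides, Kcns3 rose by 0.81 (limma adjusted p = 0.0242).

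Auxiliary subunits of voltage-gated channels had 4 falls and 0 rises among 12, beside 11.7% lower and 13.4% higher among all genes, with a median of −0.57. There were 2 falls without the first set, with a median of −0.15. The 4 Kcnip genes encode calcium-binding proteins that bring A-type channels to the membrane, and all 4 were higher on each array of the first set than on the other 9. Kcnip4 (Entrez gene 80334) had the greatest fall in the family. It was 10.33, 9.99, 9.53 and 9.21 in the first set, 4.38, 4.77 and 5.29 in the second, and ran between 4.08 and 4.53 in db/db. Its values therefore lay in 2 separate ranges, and the db/+ SD was 2.68. It fell by 3.33 ± 1.01 (SE) (limma adjusted p = 0.0297), and without the first set it stood at −0.50 (limma adjusted p = 0.108).

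Kcnip1 fell by 2.38 ± 0.79 (SE) (limma adjusted p = 0.0427), from levels between 6.99 and 8.78 in the first set. It was between 4.02 and 4.20 in the second and between 3.49 and 4.31 in db/db, and the difference without the first set was −0.24. Kcnip1 lost its call when any single array outside the second set was left out (highest limma adjusted p = 0.0825) and when the number series was a block (limma adjusted p = 0.06). Kcnip4 lost its call without any such array other than db/db 111 (highest limma adjusted p = 0.0603). Kcnip3, which also acts in the nucleus as a repressor of transcription, fell by 1.64 ± 0.39 (SE) (limma adjusted p = 0.00961). It was between 7.81 and 8.91 in the first set, between 6.19 and 6.85 in the second and between 5.43 and 6.15 in db/db, so that all db/db values were below all db/+ values. The change without the first set was −0.66 and did not pass (limma adjusted p = 0.0639).

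Kcnab1 (Entrez gene 16497), a cytoplasmic beta subunit of the Kcna channels, fell over all arrays and under each of 25 alternatives. Its level was 8.74, 8.02, 7.97 and 7.58 in the first set, and 6.36, 6.33 and 6.27 in the second. In db/db it was 4.94, 5.54, 5.36, 5.47, 5.20 and 5.58 in samples 110, 111, 112, 409, 410 and 411. The 3 sets were ordered without overlap. It fell by 1.98 ± 0.39 (SE) over all arrays (limma adjusted p = 0.0033), by 0.97 ± 0.15 without the first set (limma adjusted p = 0.0036) and by 0.88 in samples 404 to 411 (limma adjusted p = 0.0316). The mean of the 13 neuronal genes also ordered the 3 sets without overlap. The part of neuronal genes in the Kcnab1 difference was not tested. Kcnab2, the beta subunit found with Kcna1 and Kcna2 beside the node, was between 8.55 and 9.18 in the first set and between 6.66 and 7.82 on the other 9. It stood at −0.59 over all arrays and 0.42 without the first set, and passed in neither (limma adjusted p = 0.288 and 0.242).

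Kcne4, a single-span subunit that restrains several voltage-gated channels, followed another order. It was between 10.03 and 10.53 in the first set, 11.26, 11.20 and 10.89 in the second, and ran between 9.82 and 10.39 in db/db. The first set overlapped with db/db, and the second was above both. The difference was −0.55 over all arrays (limma adjusted p = 0.0706), and Kcne4 fell by 1.05 ± 0.15 (SE) without the first set (limma adjusted p = 0.00291) and by 1.06 in samples 404 to 411.

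Of the 11 inward rectifier genes Kcnj15 rose, Kcnj10 fell and 9 did not pass, beside 13.4% higher and 11.7% lower among all genes, and the median was −0.01. There was 1 rise without the first set, with 0 falls by limma (1 at an unadjusted p below 0.05) and a median of −0.07. Kcnj10 (Entrez gene 16513) encodes the rectifier with which satellite glia around sensory neurons take up potassium. It was 9.18, 9.62, 10.17 and 10.42 in the first set, 6.66, 6.28 and 6.33 in the second, and ran between 5.38 and 6.33 in db/db. Values in the first set were far above the rest, and the second set and db/db overlapped between 6.28 and 6.33. It fell by 2.60 ± 0.72 (SE) over all arrays (limma adjusted p = 0.0196). The change was −0.64 without the first set (limma adjusted p = 0.0759), and in samples 404 to 411 it fell by 0.80 (limma adjusted p = 0.0282). When the number series was blocked on, without the first set, it fell by 0.72 (limma adjusted p = 0.00624).

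The mean of 5 measured satellite glia markers was between 12.02 and 12.18 in the first set, between 11.10 and 11.26 in the second and between 11.05 and 11.60 in db/db, with 1 called lower. One of them, Fabp7, was between 12.48 and 12.80 in the first set, between 6.93 and 8.24 in the second and between 7.80 and 10.59 in db/db, while the more widely expressed Glul was between 13.56 and 13.75 on all 13. Kcnj10 and Fabp7 were both higher on each array of the first set than on the other 9. In 5 of 6 db/db arrays Kcnj10 lay below the whole second set, and in 5 of 6 Fabp7 lay above it. Fabp7 stood at −1.11 over all arrays and was not called (limma adjusted p = 0.483). Without the first set it stood at 1.78 and did not pass (limma adjusted p = 0.0908). When the number series was blocked on besides, Fabp7 rose by 1.53 (limma adjusted p = 0.0318). The part of satellite glia in the Kcnj10 difference was not tested. Kcnj9, the neighbour of Kcnj10, was between 3.85 and 4.59 on all arrays.

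Kcnj8 and Kcnj11 encode the pores of ATP-sensitive channels, in vessels and in muscle, neurons and islets. They stood at 0.04 (95% interval −0.39 to 0.46) and −0.01 (95% interval −0.38 to 0.35) and did not pass. Abcc9 and Abcc8, their regulatory partners, stood at 0.00 and −0.11 (limma adjusted p = 0.991 and 0.411). Kcnj16, a subunit that joins the products of Kcnj10 and Kcnj15, was between 4.94 and 5.82 in the first set and between 4.03 and 4.30 in the second. In db/db it ran from 4.48 to 7.15, with sample 110 the highest, and its difference of 0.53 did not pass (limma adjusted p = 0.399), nor did that of 1.27 without the first set (limma adjusted p = 0.13).

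Tandem-pore genes, which carry the background leak, had 1 rise (Kcnk3) and 3 falls among 10, beside 13.4% higher and 11.7% lower among all genes, with a median of 0.21. Without the first set there were 0 rises by limma (1 at an unadjusted p below 0.05), 1 fall and a median of 0.04. Kcnk5 (Entrez gene 16529), an alkaline-activated member, was 7.08, 7.44, 7.38 and 7.76 in the first set, 8.19, 8.10 and 8.21 in the second, and ran between 6.87 and 7.46 in db/db. As for Kcne4, the second set stood above all others. Kcnk5 fell by 0.61 ± 0.19 (SE) over all arrays (limma adjusted p = 0.036), by 1.04 ± 0.14 without the first set (limma adjusted p = 0.00222) and by 0.97 in samples 404 to 411 (limma adjusted p = 0.0166). The call over all arrays was lost when any single array other than 101, 103, 104 and 112 was left out (highest limma adjusted p = 0.0747).

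Kcnk1, a weakly conducting member, was between 11.24 and 11.39 in the first set, 10.69, 10.36 and 9.78 in the second and between 9.04 and 10.42 in db/db, and fell by 1.02 ± 0.29 (SE) (limma adjusted p = 0.0224). Kcnk2, opened by stretch and warmth, was between 9.82 and 10.77, between 8.96 and 10.06 and between 8.84 and 9.56 in the same sets and fell by 0.78 ± 0.23 (SE) (limma adjusted p = 0.0267). Without the first set they stood at −0.43 and −0.45 and did not pass (limma adjusted p = 0.39 and 0.28). Kcnk1 lost its call without 411 (limma adjusted p = 0.0501) and Kcnk2 without 106, 110, 409 or 411 (highest 0.0609). Myelin markers were lower in the same direction, with 3 of 6 measured called lower and a mean between 10.83 and 11.49, between 10.36 and 11.10 and between 9.56 and 10.82 in the 3 sets, and their part was not tested. Kcnk4, another mechanically gated leak channel, stood at −0.20 and did not pass (limma adjusted p = 0.342).

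Calcium- or sodium-activated channels had 1 rise (Kcnn4) and 5 falls among 10, beside 13.4% higher and 11.7% lower among all genes, with a median of −0.76. The first set left out, there was 1 rise, with 0 falls by limma (4 at an unadjusted p below 0.05) and a median of −0.24. The share of all genes at that unadjusted threshold was not counted. Kcnmb1 (Entrez gene 16533), the beta subunit of large-conductance channels in smooth muscle, was 7.81, 7.06, 7.36 and 6.66 in the first set, 4.01, 4.70 and 5.86 in the second, and ran between 3.50 and 3.97 in db/db. The genotypes did not overlap, although db/+ 105 lay close to the highest db/db value of 3.97. It fell by 2.46 ± 0.54 (SE) (limma adjusted p = 0.00588) and was at −1.11 without the first set (limma adjusted p = 0.0547). When the number series was blocked on besides, it fell by 1.03 (limma adjusted p = 0.049). The mean of 8 pericyte and smooth muscle markers was between 9.56 and 9.98 in the first set, between 9.46 and 10.49 in the second and between 9.36 and 9.78 in db/db, with 1 called higher and 2 called lower. Those lower were the contractile genes Cnn1, which fell by 1.59 (limma adjusted p = 0.029), and Myh11, which fell by 1.13 (limma adjusted p = 0.0257). Without the first set Cnn1 stood at −2.06 and did not pass (limma adjusted p = 0.0761). Of the same markers, Acta2 stood at 0.23 and Cspg4 at −0.01 over all arrays, and neither passed (limma adjusted p = 0.323 and 0.959). Cnn1 was between 5.75 and 6.14 in the first set, 4.84, 6.78 and 8.74 in the second, and between 4.42 and 5.49 in db/db. Kcnmb1 was highest in the first set and Cnn1 in db/+ 407. The part of smooth muscle in the Kcnmb1 difference was not tested. The Kcnmb1 gene overlaps that of Kcnip1 in RefSeq, and whether the probe set reads a single gene was not tested.

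Kcnt1, a sodium-activated channel of sensory neurons, was 8.31, 8.40, 8.12 and 8.28 in the first set, 6.66, 7.84 and 6.35 in the second, and ran between 5.60 and 6.51 in db/db. Only db/+ 407 reached into the db/db range. It fell by 1.69 ± 0.34 (SE) (limma adjusted p = 0.00387), and without the first set it was −0.93 (limma adjusted p = 0.0855). Kcnmb4, the neuronal beta subunit of large-conductance channels, was between 8.91 and 9.58, between 8.31 and 9.01 and between 7.11 and 8.63 in the 3 sets and fell by 1.08 ± 0.25 (SE) (limma adjusted p = 0.00819), and stood at −0.70 without the first set (limma adjusted p = 0.158).

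Small-conductance channel genes Kcnn1 and Kcnn2 fell by 0.71 ± 0.17 (SE) and 1.39 ± 0.42 (limma adjusted p = 0.0111 and 0.0288). Kcnn1 ranged from 6.70 to 7.79 in db/db nerve and from 7.86 to 8.46 in db/+ nerve, so the genotypes did not overlap and the first and second sets did. Kcnn2 was between 7.57 and 8.33 in the first set and between 5.51 and 6.73 on the other 9. Kcnn1 and Kcnn2 were −0.59 and −0.31 without the first set (limma adjusted p = 0.133 and 0.396). Kcnn2 lost its call when any single array outside the second set, other than 111 and 112, was left out (highest limma adjusted p = 0.0572). The pore gene Kcnma1 stood at −0.81 (limma adjusted p = 0.0648) and Kcnu1, its relative in sperm, at −0.62 (limma adjusted p = 0.13), and they stood at −0.17 and −0.14 without the first set. Kcnab1, Kcnd3, Kcnip3, Kcnmb1 and Kcnn1 made up the 5 of 70 members that were lower in all db/db samples than in any db/+ sample, which 3.51% of all genes were.

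**Figure D3:**
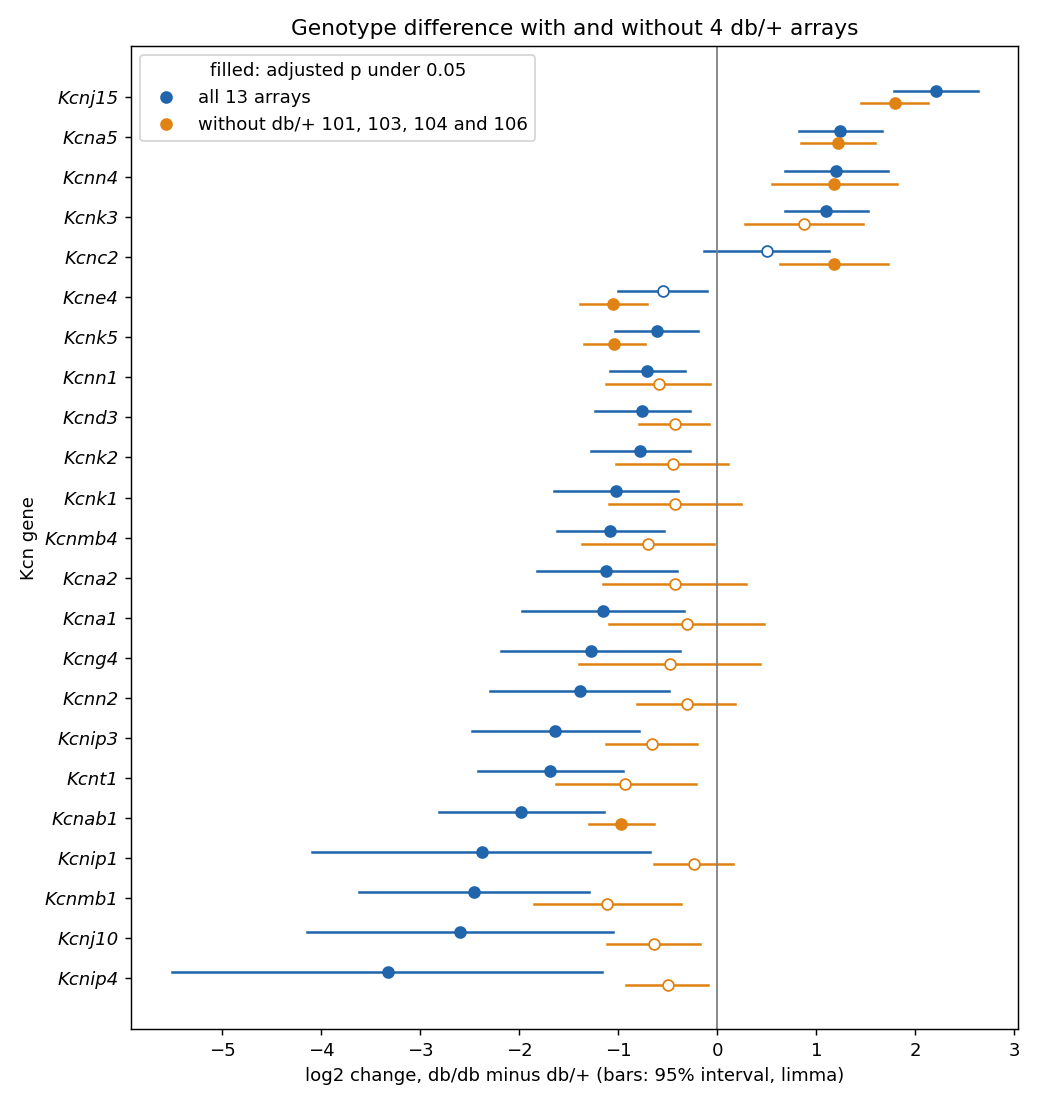
Log2 change (db/db minus db/+, horizontal axis, bars for limma's 95% interval) of the 23 potassium channel genes called over all 13 arrays (blue) or without db/+ 101, 103, 104 and 106 (orange), with filled points for an adjusted p below 0.05. Kcna5 and Kcnn4 stay in place, Kcnj15 moves from 2.21 to 1.79 and Kcnab1 from −1.98 to −0.97 with both still called, and Kcnip4, Kcnj10 and Kcnip1 move to between −0.64 and −0.24.

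**Figure D4:**
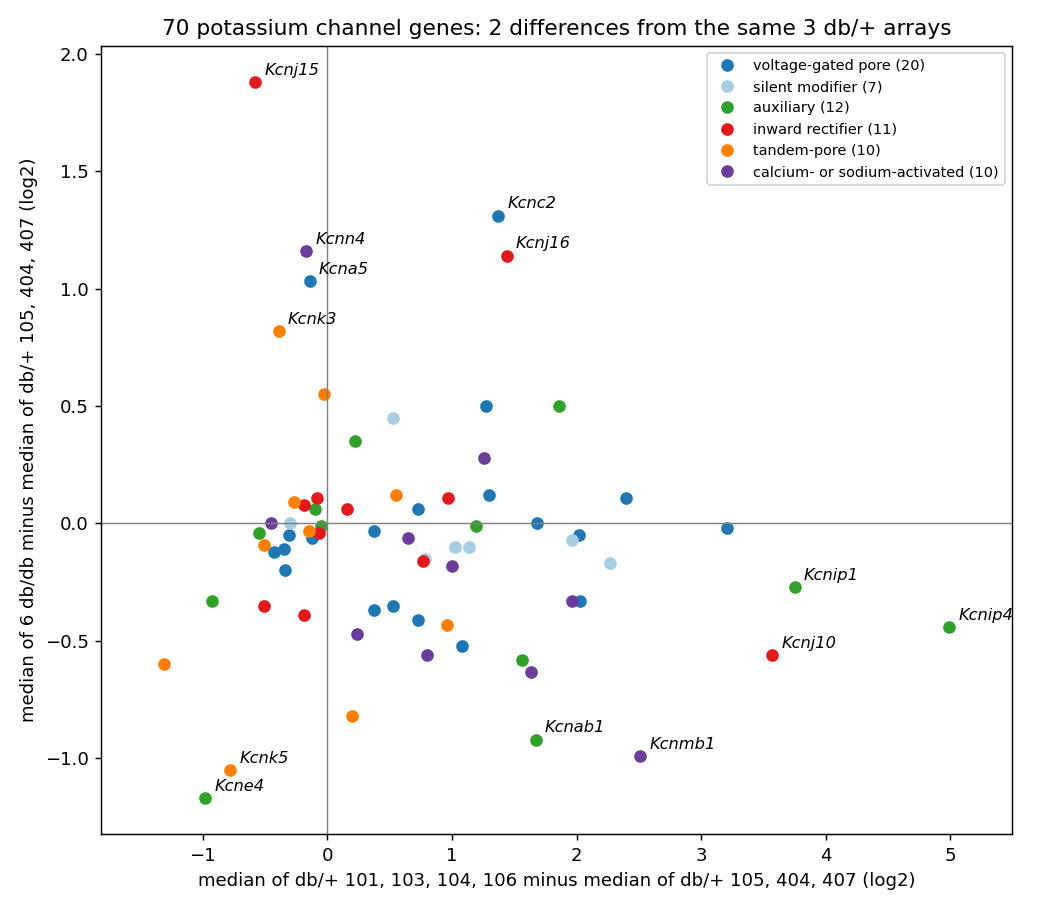
For each of the 70 genes, the median of db/+ 101, 103, 104 and 106 (horizontal) and of the 6 db/db arrays (vertical), each minus the median of db/+ 105, 404 and 407, on the log2 scale. Both axes use the same 3 arrays, so they are not independent. Kcnip4 lies farthest right at 4.99 and Kcnj15 highest at 1.88.

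Genes that encode partners of these channels were examined as a separate list of 36, of which 31 were measured. It held regulatory subunits, anchoring proteins, pacemaker channels and potassium-chloride carriers. Of the 31, 1 rose (3.23%, beside 13.4% of all genes) and 11 fell (35.5%, beside 11.7%), and the median was −0.53 beside 0.02. Without the first set 2 rose and 2 fell, 6.45% each way, near the 6.12% and 6.78% of all genes, and the median was −0.13 beside −0.05. Nedd4l was the gene that rose over all arrays, by 0.64 (limma adjusted p = 0.0255), and lost its call without 110, 409, 410 or 411 (highest 0.0541). Without the first set Nedd4l and Adam23 rose by 1 and 0.70 (limma adjusted p = 0.0091 and 0.0138). Lgi2 fell by 1.34 over all arrays and by 1.93 without the first set (limma adjusted p = 0.0228 and 0.0296). In 15 of 31 (48.4%) the first set was above the other 9 arrays throughout, an order that 8.45% of all genes had. Lgi1, a secreted protein that binds complexes of Kcna channels, fell by 2.21 ± 0.30 (SE) (limma adjusted p = 0.000295). It was between 9.80 and 10.26 in the first set, 9.13, 9.43 and 8.16 in the second and between 6.73 and 7.73 in db/db, without overlap of the genotypes. It fell by 1.61 without the first set (limma adjusted p = 0.0113).

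Lgi4, which Schwann cells secrete and need for myelination, fell by 0.93 ± 0.19 (SE) (limma adjusted p = 0.00378), and was −0.82 without the first set (limma adjusted p = 0.0751). Amigo1, a partner of delayed rectifiers, fell by 0.75 ± 0.17 (SE) (limma adjusted p = 0.00656) and the pacemaker channel gene Hcn2 by 0.60 ± 0.15 (limma adjusted p = 0.0118), and these were −0.58 and −0.35 without the first set (limma adjusted p = 0.0772 and 0.117). When the number series was blocked on besides, Lgi4 fell by 0.89 and Amigo1 by 0.52 (limma adjusted p = 0.0332 and 0.0391). Cntnap2, which holds Kcna1 and Kcna2 beside the node, was between 9.66 and 10.39 in the first set and between 4.16 and 6.06 on the other 9. It fell by 3.34 ± 0.92 (SE) (limma adjusted p = 0.0198) and was −0.79 without the first set (limma adjusted p = 0.131).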

How the data were processed

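Amplified, biotin-labelled RNA of 13 nerve samples was read on arrays, each with 1 sample, per the labels. The deposited values are log2 levels, and RMA is the method that the submitters' processing notes name. RMA normalizes arrays to each other and compresses differences of dim genes, and for its version and the platform nothing was given in the sources used here. Without a detection call, dimness was judged by level: 41 of the 70 members had a mean at or below 6.29, the 25th percentile of gene means, and 29 were above it. Of the members called over all arrays, Kcna2, Kcnd3, Kcng4, Kcnip1, Kcnip4 and Kcnmb1, all called lower, were dim. Of 15479 probe sets 42 were controls and were left out, and 14801 of the other 15437 had a gene symbol. Symbols of all 70 members matched RefSeq (GRCm38.p6). Number of arrays limits the precision.

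The genotype comparison used limma 3.58.1 (lmFit, then eBayes, R 4.3.3) with 2-sided p-values and no covariate. Standard errors and intervals come from that fit. The step was tested on simulated data. Alternatives were moderation with an intensity trend, normalization, a filter, array weights, the number series (101 to 112, 404 to 411) as a block or alone, arrays left out, a minimum change of 1 and an exact permutation test. Members, lists and tests were chosen with earlier results of these data known. Genes were named by rule. The rules took up to 10 greatest called changes each way and the smallest p of each subfamily. They also took members called without db/+ 101, 103, 104 and 106 and members fixed for known roles. For partners they took the 3 smallest p and 6 fixed genes. Kcna4, Kcna6, Kcna7, Kcnc4, Kcnh1, Kcnj9, Kcnj16, Kcnn1 and Kcns3, and the partners Nedd4l, Adam23 and Lgi2, were added after their values were seen. Tables used Python 3.11.15, pandas 2.3.3 and numpy 2.4.6.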

Additional observations from a re-analysis of the deposited data

Results flagged for a closer look

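The genes named here by rule were searched for single arrays that stood apart within their genotype, in 88 sets of 6 or 7 values, of which chance alone marks about 1 in 20. This marked 4. Kcna3 was 5.16 in db/+ 404, above the other db/+ arrays. Kcnq1 was 5.89 in db/+ 106, below the others. Kcnf1 was 5.58 in db/db 411 and Kcnma1 was 5.23 in db/db 112, each above the other db/db arrays. These genes were called in no genotype comparison over all arrays.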

How the results depend on the processing

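Kcnj15, Kcna5, Kcnab1 and Lgi1 are described above with their values under other choices. Over all 13 arrays, 4 potassium channel genes rose and 17 fell, 1 partner gene rose and 11 fell, and 2068 and 1799 of all genes did. With array weights 35 members fell, 2 partner genes rose and 3581 and 2944 of all genes rose and fell. With dim genes left out 11 members and 7 partner genes fell, and with the exact permutation test 10 and 7. In samples 101 to 112 and with a change of at least 1 required, 0 partner genes rose by limma, and the latter left 561 and 656 of all genes higher and lower. In samples 404 to 411, 4 members and 0 partner genes fell, 2 partner genes rose, and 761 and 643 of all genes were higher and lower. Without db/+ 101, 103, 104 and 106, 3 members and 2 partner genes fell, 2 partner genes rose, and the counts of all genes were 945 and 1047. With the number series as a block over all arrays, 15 of the 17 falls were kept, and Kcng4 and Kcnip1 lost their calls. With the block and without those 4 arrays, 7 members and 2 partner genes rose and 5 and 4 fell. With single arrays left out, the counts of rises and falls ran from 4 to 5 and from 8 to 25 for members, from 0 to 1 and from 7 to 14 for partner genes, and from 1621 to 2376 and from 1267 to 2153 for all genes. The cause of these shifts was not tested, except that a filter tests fewer genes.

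Sign changes were seen in genes that were not called over all 13 arrays. One of them, Kcnh2, rose by 0.77 without db/+ 101, 103, 104 and 106 and blocking on the number series. In samples 404 to 411, without db/+ 101, 103, 104 and 106, and with the block besides, Kcnab2 stood at 0.43, 0.42 and 0.45, Kcnc1 at 0, 0.03 and 0.07, Kcnd2 at 0.06, 0.07 and 0.07, Kcnk4 at 0.1, 0.07 and 0.11, Kcnv1 at 0.06, 0.01 and 0.08, Abcc8 at 0.07, 0.04 and 0.07, Kcnj8 at −0.22, −0.34 and −0.3, Kcnq1 at −0.19, −0.36 and −0.29, and Abcc9 at −0.19, −0.19 and −0.21. Kcnf1 stood at 0.06 in samples 404 to 411. With the block alone Kcnj8, Kcnq1 and Abcc9 were −0.05, −0.1 and −0.01. In samples 101 to 112 Kcnh2, Kcnq1 and Kcnj11 were −0.44, −0.05 and 0.03. With array weights Kcnh2 was −0.1 and Kcnj11 0.04, and Kcnj11 was 0.08 with renewed quantile normalization and 0.03 with median centring. With single arrays left out, Kcnh2 ran from −0.13 to 0.18, Kcnj11 from −0.13 to 0.08, Kcnj8 from −0.08 to 0.13, Kcnq1 from −0.18 to 0.14 and Abcc9 from −0.09 to 0.07.

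No paired analysis was possible because the groups share no sample numbers. For lack of detection calls, signal over background was not assessed for the 41 dim members.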

Other observations

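Skeletal muscle transcripts varied between arrays without regard to genotype. The mean of 7 muscle markers was 12.12 in db/+ 101, 11.34 in db/+ 407, 10.96 in db/db 112 and 11.98 in db/db 411, and between 6.70 and 9.40 on the other 9 arrays. Kcnj11, the pore of the ATP-sensitive channel of muscle, was 6.18, 6.64, 6.24 and 6.60 on those 4 arrays and between 5.64 and 6.13 on the others. Kcna7, a channel of muscle and heart, was 5.36, 5.40, 5.98 and 6.66 on them and between 4.74 and 5.41 elsewhere. Kcnj11 was among the members fixed for known roles, and Kcna7 was added later. Both were picked for this comparison with muscle markers after their values were seen.

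The difference of the genotype effect between samples 101 to 112 and samples 404 to 411 was tested by limma with Benjamini-Hochberg adjustment. It passed for 0 of the 70 potassium channel genes, and 15 had an unadjusted p below 0.05. Among all 15437 genes these counts were 0 and 2360. The first set lies wholly in samples 101 to 112, so this test cannot separate the number series from the first set.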
